A study of Homo sapiens with 4 samples.

Results

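N6-methyladenosine (m6A) is deposited on mRNA by a nuclear methyltransferase complex and removed by demethylases. The mRNAs that encode these proteins were followed here in RNA immunoprecipitation sequencing (RIP-seq) of KIAA1429, one of the subunits of the complex. The genes were taken by name: the catalytic pair METTL3 and METTL14, the regulatory subunits WTAP, VIRMA, ZC3H13, CBLL1, RBM15 and RBM15B, and the erasers ALKBH5 and FTO. KIAA1429 is listed under its current symbol, VIRMA. These 10 genes had 21 of the 34975 listed transcripts, and all 10 were among the 13300 listed gene names.

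The cells were HCCLM3, a human hepatocellular carcinoma line with no transgene or knockdown named in the labels. An antibody against KIAA1429 was used for 2 libraries (KIAA1429 RIP), and normal IgG, which gives the background of the procedure, for the other 2 (IgG RIP). No input library was analysed here, so the values show what came down with each antibody and not the level of an mRNA in the cell. Whether the replicates came from separate cultures is not stated, and p-values then measure only the spread between these libraries. Values are FPKM, that is, fragment numbers normalized for the length of the transcript and the size of the library, and a gene total is the sum over the listed transcripts of a gene.

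In m6A writing, METTL3 binds the methyl donor S-adenosylmethionine and transfers the methyl group, while METTL14 holds the RNA and stabilizes METTL3. WTAP brings this pair to nuclear speckles, and VIRMA is the large scaffold to which the other regulatory subunits attach. ZC3H13 keeps the complex in the nucleus, CBLL1 (also called HAKAI) is a RING finger protein, and RBM15 and RBM15B bind RNA and recruit the complex to it. ALKBH5 and FTO are oxygenases that use iron and 2-oxoglutarate to remove methyl groups from adenosine.

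Hepatocyte markers were present, with 14 of 16 listed. ALB ranged from 53.5 to 76.3 FPKM and AFP from 99.1 to 128 FPKM, whereas HNF4A was below 1.12 FPKM in each library and CYP3A4 and ASGR1 had no listed transcript. The hepatocyte markers summed to 488 to 528 FPKM in IgG RIP, against 438 to 480 FPKM in KIAA1429 RIP. One of them, the apolipoprotein gene APOH, had an unadjusted limma p under 0.05 (0.0204, adjusted p 0.997), at 0.855 and 1.14 FPKM in IgG RIP and at 4.59 and 5.04 FPKM in KIAA1429 RIP. Of 5 epithelial markers, 4 were listed (CDH1 was not), and they summed to 1290 to 1539 FPKM in IgG RIP, against 1510 to 1712 FPKM in KIAA1429 RIP. None of 4 endothelial markers was listed. Of 6 fibroblast markers, COL3A1 and PDGFRB were listed, with sums of 13.3 to 16.4 and 10.6 to 17.2 FPKM. Of 5 immune markers, CD14, CD68 and LYZ were listed and the defining PTPRC and CD3E were not, with sums of 52.0 to 87.8 and 40.7 to 59.9 FPKM. The part of other cell types in the results was not tested. Rank correlations of gene totals were 0.849 between the IgG RIP libraries, 0.872 between the KIAA1429 RIP libraries and 0.833 to 0.885 between libraries of different groups, so libraries of a group were no more alike than libraries of different groups. IgG RIP replicate 2 had the largest share of transcripts listed at 0, 32.2%, against 26.6 to 29.0% in the other libraries.

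The comparison asks which mRNAs made up a larger share of the RNA recovered with the KIAA1429 antibody than with IgG. METTL3 mRNA had the largest difference of the 10 genes. Its mean was the lowest of the 10 in IgG RIP, and it was several times higher in both KIAA1429 RIP libraries, while METTL14, WTAP and VIRMA itself differed by less than the spread between replicates. ALKBH5 lay lower and FTO higher in KIAA1429 RIP, in both cases with groups that did not overlap and with p-values that missed the threshold. Over all gene totals, 15.2% lay lower and 16.6% higher with groups that did not overlap. No gene total of the 10 passed the threshold of a log2 fold change beyond 1 with a limma adjusted p under 0.05. The share of all 11361 tested gene totals that passed was 0.0% in either direction, and the lowest adjusted p of the 10 genes was 0.946.

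**Figure D1:**
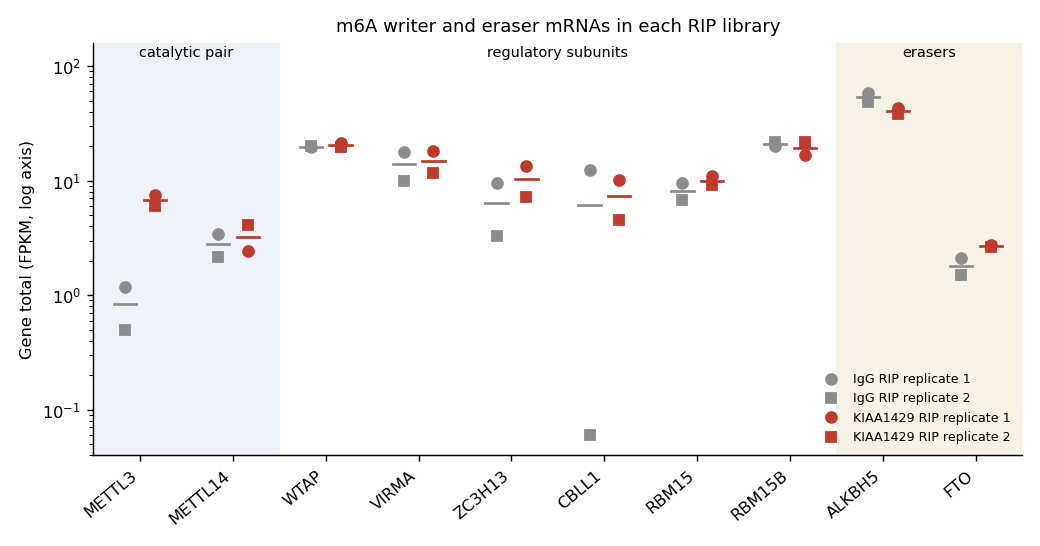
Gene totals in FPKM (log axis) of the 10 genes in the 4 RIP libraries. Circles are replicate 1, squares are replicate 2, grey is IgG RIP, red is KIAA1429 RIP, and the short lines are group means. METTL3 lies at 0.498 and 1.19 FPKM in IgG RIP and at 6.04 and 7.44 FPKM in KIAA1429 RIP, and CBLL1 has 1 IgG RIP library at 0.0600 FPKM.

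METTL3 was represented by 1 listed transcript of the 14 annotated in GENCODE, METTL3-201 (ENST00000298717.8_1), on the minus strand of chromosome 14 (chr14:21966282-21979517, GRCh37). This span is as listed with the values. In the GENCODE annotation used here METTL3-201 begins at base 21979482 and has 11 exons and 1980 spliced bases, of which 1740 are coding. The catalytic centre of METTL3 carries the motif DPPW, and METTL14 has EPPL at the matching place. The 60 coding bases around each motif are shown because they separate the catalytic subunit from its partner, with the codons of the motif in capitals. The METTL3 stretch lies in exon 6 (chr14:21968723-21968782, minus strand) and the METTL14 stretch in exon 7 (chr4:119618383-119618442, plus strand), both on GRCh37 and read in the sense direction.
METTL3-201: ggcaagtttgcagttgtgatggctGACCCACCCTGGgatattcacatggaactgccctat
METTL14-201: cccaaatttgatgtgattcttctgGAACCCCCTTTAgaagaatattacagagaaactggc

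METTL3 was at 1.19 and 0.498 FPKM in IgG RIP and at 7.44 and 6.04 FPKM in KIAA1429 RIP. Both KIAA1429 RIP libraries were above both IgG RIP libraries, and in both of these METTL3 was above METTL14 and FTO. In IgG RIP it was the lowest of the 10 genes in replicate 1 and above CBLL1 alone in replicate 2. The lysates were bulk, so these values average over cells. They give what came down with each antibody and not how much of the mRNA a cell held. The means were 0.842 ± 0.486 (SD, n = 2) and 6.74 ± 0.984 FPKM (SD, n = 2), an 8.01-fold difference, with 6.27-fold between the libraries numbered 1 and 12.1-fold between those numbered 2. Without IgG RIP replicate 1 the ratio of means was 13.5. On the scale of log2(FPKM + 1), which understates the change of low values, limma gave a log2 fold change of 2.09 (SE 0.52, 95% interval 0.85 to 3.33). Its unadjusted p was 0.00539, and its adjusted p by limma with Benjamini-Hochberg adjustment over all gene totals was 0.946. Of all gene totals, 68 had a positive log2 fold change at least as large, METTL3 included. METTL3 was the 1 gene of the 10 with an unadjusted p under 0.05 and a log2 fold change above 1, a state that 2.34% of all gene totals reached. It was also the 1 gene of the 10 at least 2-fold higher by group means, against 7.58% of all gene totals, and none was at least 2-fold lower, against 6.14%. An exact permutation test of 2 libraries against 2 cannot go below p = 0.333, so it was not used for single genes.

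The 3' end of METTL3 overlaps TOX4, a gene for a high mobility group protein, which is transcribed from the opposite strand. Exon 10 (113 bases) and exon 11 (232 bases) of METTL3-201 lie wholly in TOX4 exons, which is 345 of its 1980 bases or 17.4%. Whether the libraries kept strand is not stated, so reads from these bases cannot be assigned with certainty. The TOX4 gene total was 17.5 and 16.8 FPKM in IgG RIP, against 11.7 and 16.3 FPKM in KIAA1429 RIP. TOX4 thus lay lower in both KIAA1429 RIP libraries, with a limma log2 fold change of -0.29 (SE 0.34, adjusted p 0.997). Its part in the METTL3 values was not tested. The PCR primers that the study designed for METTL3 are shown because the pair touches this overlap. The forward primer lies in exon 9 (chr14:21967480-21967499), and all 20 bases of the reverse primer (chr14:21967213-21967232, exon 10) lie in TOX4 exons. Both are in coding sequence, the reverse primer is printed 5′ to 3′ and is complementary to the mRNA, the amplicon is 119 bases, and the capitals of the DPPW stretch above lie upstream of it in the mRNA.
METTL3 forward primer: atccccaaggcttcaaccag
METTL3 reverse primer: gcgagtgccaggagatagtc

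METTL14, the structural partner of METTL3, showed no such difference. Its gene total was 3.45 and 2.17 FPKM in IgG RIP, against 2.41 and 4.09 FPKM in KIAA1429 RIP. The groups overlapped, with a ratio of means of 1.16 and a log2 fold change of 0.15 (SE 0.53, 95% interval -1.11 to 1.41). The higher KIAA1429 RIP library owed 2.36 FPKM to METTL14-203, a transcript listed at 0 in the other 3 libraries. All 927 bases of METTL14-203 are also in METTL14-201 (chr4:119606523-119636588, plus strand), so this division depends on how reads were assigned. METTL14-201 alone was at 3.45, 2.17, 2.41 and 1.73 FPKM in the order IgG RIP 1, IgG RIP 2, KIAA1429 RIP 1 and KIAA1429 RIP 2. The ratio of METTL3 to METTL14, in FPKM, was 0.344 and 0.230 in IgG RIP, against 3.09 and 1.48 in KIAA1429 RIP. In the IgG RIP libraries METTL14 was thus the more abundant mRNA of the catalytic pair, and in the KIAA1429 RIP libraries METTL3 was.

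WTAP had the smallest change of the 10 genes. Its gene total was 19.48 and 19.95 FPKM in IgG RIP, against 21.36 and 19.50 FPKM in KIAA1429 RIP. The ratio of means was 1.04 and the log2 fold change 0.05 (SE 0.31, 95% interval -0.68 to 0.78). Beneath this level total, the 5 listed transcripts were divided differently from library to library. WTAP-202 and WTAP-206 run to the last exon and encode the full protein (1188 coding bases). WTAP-201, WTAP-205 and WTAP-207 end early, with 453, 510 and 510 coding bases. All 5 share the first 452 coding bases, up to base 160169401 of chromosome 6 in exon 6. The bases around this point are shown because they separate the forms, with the shared part in small letters and the part that differs in capitals. WTAP-205 and WTAP-207 continue in exon 7 of the short form (chr6:160169382-160169651, plus strand, with an intron between). WTAP-202 continues in exon 7 of the long form (chr6:160169382-160174521, with an intron between), and in WTAP-201 exon 6 runs on past this splice site, with 1 more coding base before the stop codon.
WTAP-205 and WTAP-207: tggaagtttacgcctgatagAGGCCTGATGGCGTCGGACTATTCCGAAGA
WTAP-202: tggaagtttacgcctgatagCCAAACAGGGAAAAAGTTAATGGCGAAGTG

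WTAP-201 was at 6.07 and 4.74 FPKM in IgG RIP and at 12.6 and 10.7 FPKM in KIAA1429 RIP. It was 2.16-fold higher by group means and made up 31.2% and 23.7% of the WTAP total in IgG RIP against 59.2% and 54.6% in KIAA1429 RIP. Its log2 fold change was 0.99 (SE 0.41), with an unadjusted limma p of 0.0655 and an adjusted p of 0.879. The other 4 transcripts overlapped between the groups. WTAP-202 was at 0, 7.67, 5.60 and 5.28 FPKM and WTAP-206 at 9.07, 0.845, 0.627 and 1.95 FPKM, in the order IgG RIP 1, IgG RIP 2, KIAA1429 RIP 1 and KIAA1429 RIP 2. In the same order, WTAP-205 was at 0.839, 6.70, 0 and 1.62 FPKM and WTAP-207 at 3.49, 0, 2.49 and 0 FPKM. Of the 1622 bases of WTAP-201, 220 are in no other listed transcript, against 1413 of 3656 in WTAP-202. WTAP-205, WTAP-206 and WTAP-207 have 0, 60 and 5 such bases. The division of the total among these transcripts therefore depends on how reads were assigned. In the listed values, transcripts with the same 3' end replaced each other between replicates, as WTAP-202 and WTAP-206 did in IgG RIP.

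The transcripts were also summed by 3' end, a division chosen after the values were seen and therefore not tested. The 2 transcripts that reach the last exon summed to 9.07 and 8.51 FPKM in IgG RIP and to 6.22 and 7.23 FPKM in KIAA1429 RIP. The 3 that end early summed to 10.4 and 11.4 FPKM in IgG RIP and to 15.1 and 12.3 FPKM in KIAA1429 RIP. The sum of the forms that reach the last exon was lower, and that of the early forms higher, in both KIAA1429 RIP libraries. Single forms did not all follow by group means from IgG RIP to KIAA1429 RIP. Of the early forms WTAP-201 alone rose, while WTAP-205 fell from 3.77 to 0.809 FPKM and WTAP-207 from 1.75 to 1.25 FPKM. Of the long forms WTAP-206 fell from 4.96 to 1.29 FPKM, but WTAP-202 rose from 3.83 to 5.44 FPKM. The gene total was nearly level, so the opposite directions of the sums are not separate observations. The early forms hold 1052 bases that the others lack, the long forms 2920, and 934 are common. WTAP shares 437 annotated bases with SOD2, the mitochondrial superoxide dismutase gene on the opposite strand, 93 of them with listed SOD2 transcripts. SOD2 was at 9.84 and 15.2 FPKM in IgG RIP and at 22.1 and 26.6 FPKM in KIAA1429 RIP, with a limma log2 fold change of 0.93 (SE 0.36, unadjusted p 0.0356, adjusted p 0.997). Its part in the WTAP values was not tested.

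VIRMA encodes the protein that the antibody recognizes. The antibody selects the protein, so the level of its mRNA is no check of the immunoprecipitation. Its gene total was 17.96 and 10.01 FPKM in IgG RIP, against 18.2 and 11.6 FPKM in KIAA1429 RIP, and in both groups replicate 1 was the higher. The ratio of means was 1.07 and the log2 fold change 0.11 (SE 0.42, 95% interval -0.90 to 1.11). This interval leaves room for a change of up to about 2-fold in either direction. Replicate 1 was above replicate 2 in both groups for 7 of the 10 genes, a larger share than the 34.9% of all gene totals.

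The listed VIRMA transcripts differed in direction. VIRMA-201, the long form with 24 exons on chromosome 8 (chr8:95499921-95565751, minus strand), was at 14.6 and 10.01 FPKM in IgG RIP and at 8.35 and 8.18 FPKM in KIAA1429 RIP. VIRMA-202, which ends after 13 exons (chr8:95522961-95565757), was at 3.32 and 0 FPKM in IgG RIP and at 9.83 and 3.45 FPKM in KIAA1429 RIP. VIRMA-201 was therefore lower and VIRMA-202 higher in both KIAA1429 RIP libraries, the latter by a small margin of 3.45 over 3.32 FPKM. The share of VIRMA-201 in the gene total was 81.5% and 100% in IgG RIP, against 45.9% and 70.3% in KIAA1429 RIP. The log2 fold changes were -0.50 (SE 0.41) for VIRMA-201 and 1.74 (SE 0.96) for VIRMA-202, and both had a limma adjusted p of 0.879. The transcripts share 3412 bases, with 3066 bases in VIRMA-201 alone and 512 in VIRMA-202 alone.

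ZC3H13, the zinc finger subunit (chr13:46528600-46626894, minus strand), was at 9.58 and 3.25 FPKM in IgG RIP and at 13.5 and 7.19 FPKM in KIAA1429 RIP. The second KIAA1429 RIP library lay below the first IgG RIP library, so the groups overlapped, with replicate 1 the higher in both. The ratio of means was 1.61 and the log2 fold change 0.70 (SE 0.57). Without IgG RIP replicate 1 the ratio was 3.18, and without IgG RIP replicate 2 it was 1.08. The main transcript, ZC3H13-201, was at 7.28 and 2.88 FPKM in IgG RIP and at 5.50 and 4.51 FPKM in KIAA1429 RIP, a ratio of 0.986. By group means, the higher total in KIAA1429 RIP came from shorter or less abundant forms, much of it in KIAA1429 RIP replicate 1 alone. In the order IgG RIP 1, IgG RIP 2, KIAA1429 RIP 1 and KIAA1429 RIP 2, ZC3H13-204, with 3 exons and 535 bases, was at 1.83, 0, 2.25 and 2.58 FPKM. In the same order, ZC3H13-202 was at 0.479, 0.378, 2.30 and 0.0992 FPKM. ZC3H13-205, a transcript with no coding sequence, was listed at 3.46 FPKM in KIAA1429 RIP 1 and at 0 in the other libraries. ZC3H13-202 and ZC3H13-205 were thus raised in that library alone, and their means were too low for the test.

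CBLL1 (CBLL1-205, chr7:107384142-107402112, plus strand) had the widest spread of the 10 genes. It was at 12.3 and 0.0600 FPKM in IgG RIP and at 10.2 and 4.57 FPKM in KIAA1429 RIP. The IgG RIP libraries enclosed both KIAA1429 RIP libraries, and the SE of the log2 fold change (1.07) was 1.11. This fold change rested on IgG RIP replicate 2: without that library it was -0.75. The ratio of means was 1.19, and 123 without IgG RIP replicate 1. No direction can be given for CBLL1.

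The paralogues RBM15 and RBM15B differed in level. RBM15 (chr1:110881128-110889299, plus strand) was at 9.47 and 6.79 FPKM in IgG RIP and at 10.9 and 9.14 FPKM in KIAA1429 RIP. RBM15B (chr3:51428699-51435339, plus strand, a single exon) was at 19.9 and 21.7 FPKM in IgG RIP and at 16.9 and 21.5 FPKM in KIAA1429 RIP. Both genes overlapped between the groups, with log2 fold changes of 0.28 (SE 0.39) for RBM15 and -0.12 (SE 0.32) for RBM15B. RBM15B was above RBM15 in each library, by 2.11- and 3.20-fold in IgG RIP and by 1.55- and 2.36-fold in KIAA1429 RIP. The main RBM15 transcript, RBM15-203, was at 8.43, 2.90, 9.43 and 5.78 FPKM, and RBM15-202 was at 0, 2.89, 0 and 1.69 FPKM, both in the order IgG RIP 1, IgG RIP 2, KIAA1429 RIP 1 and KIAA1429 RIP 2. RBM15-202 has no base of its own, so this division too depends on how reads were assigned. RBM15B shares 1325 of its 6624 bases with DCAF1, a substrate receptor of a ubiquitin ligase on the opposite strand, 1258 of them with listed DCAF1 transcripts. DCAF1 was at 17.3 and 6.87 FPKM in IgG RIP and at 12.2 and 6.06 FPKM in KIAA1429 RIP, and its part in the RBM15B values was not tested.

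Of the 21 listed transcripts, 18 had a mean of at least 1 FPKM and were tested, and none passed the threshold. The share of all 23375 tested transcripts that passed was 0.0% in either direction. METTL3-201 alone had an unadjusted limma p under 0.05 with a log2 fold change above 1, which 2.89% of all transcripts had. Its unadjusted p by limma over all transcripts was 0.0159 and its adjusted p 0.819. The groups did not overlap for 6 transcripts that were higher in KIAA1429 RIP and 2 that were lower, and overlapped for 10. Of all tested transcripts, 15.2% were apart and higher and 14.5% apart and lower. The 6 were METTL3-201, WTAP-201, VIRMA-202, ZC3H13-204, RBM15-201 and FTO-206, and the 2 were VIRMA-201 and ALKBH5-201. RBM15-201 was at 1.03 and 0.994 FPKM in IgG RIP and at 1.45 and 1.66 FPKM in KIAA1429 RIP. Of the 21 transcripts, 8 were listed at 0 in at least 1 library.

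By group means ALKBH5 was lower and FTO higher in KIAA1429 RIP than in IgG RIP, in neither case past the threshold. FPKM are scaled by the size of the library, so these are shares of the recovered RNA and not amounts. ALKBH5, which is found in nuclear speckles, was the most abundant of the 10 mRNAs in each library (ALKBH5-201, chr17:18087553-18113268, plus strand). It was at 58.5 and 48.2 FPKM in IgG RIP and at 43.0 and 38.4 FPKM in KIAA1429 RIP. Both KIAA1429 RIP libraries were below both IgG RIP libraries, with a ratio of means of 0.763. The log2 fold change was -0.38 (SE 0.29, 95% interval -1.06 to 0.31, unadjusted limma p 0.232, adjusted p 0.997). FTO, which also acts on the methylated cap-adjacent nucleotide (FTO-206, chr16:53737875-54155853, plus strand), was at 2.11 and 1.501 FPKM in IgG RIP and at 2.76 and 2.61 FPKM in KIAA1429 RIP. Both KIAA1429 RIP libraries were above both IgG RIP libraries, with a ratio of means of 1.49. The log2 fold change was 0.40 (SE 0.53, 95% interval -0.85 to 1.66, unadjusted limma p 0.471, adjusted p 0.997). The ratio of ALKBH5 to FTO was 27.7 and 32.1 in IgG RIP, against 15.6 and 14.7 in KIAA1429 RIP.

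**Figure D2:**
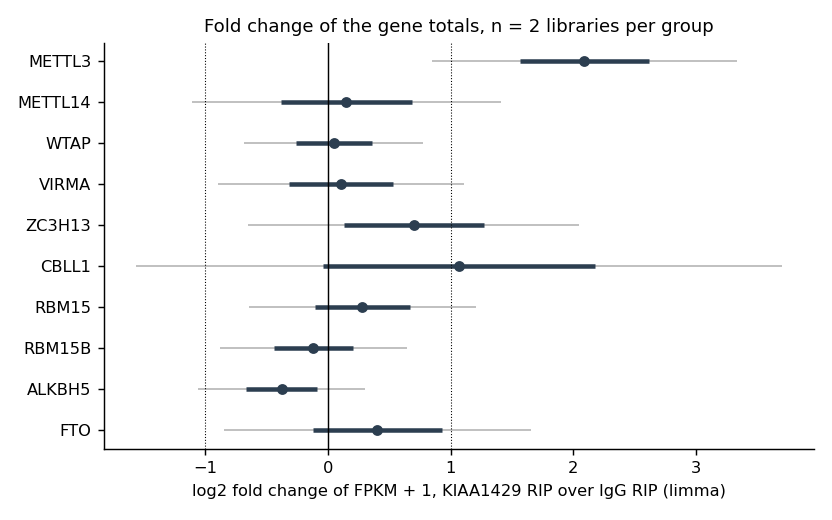
Log2 fold changes of FPKM + 1 of the gene totals, KIAA1429 RIP over IgG RIP, by limma with 2 libraries per group. Points are estimates, thick bars are ± SE, thin bars are 95% intervals and dotted lines mark a log2 fold change of 1 in either direction. The interval of METTL3 runs from 0.85 to 3.33, and those of the other 9 genes include 0.

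Across the 10 genes, 2 were apart and higher in KIAA1429 RIP (METTL3 and FTO), 1 was apart and lower (ALKBH5) and 7 overlapped. Of all gene totals, 16.6% were apart and higher and 15.2% apart and lower. The log2 fold change was above 0 for 8 of the 10 genes and below 0 for 2, with a median of 0.22, beside 51.4% above 0 and a median of 0.02 over all gene totals. The 8 writer genes summed to 93.3 and 64.4 FPKM in IgG RIP and to 101 and 83.7 FPKM in KIAA1429 RIP, so the sums overlapped. METTL3 made up 1.27% and 0.773% of this sum in IgG RIP, against 7.38% and 7.22% in KIAA1429 RIP. The 2 erasers summed to 60.6 and 49.7 FPKM in IgG RIP and to 45.8 and 41.0 FPKM in KIAA1429 RIP, nearly all of it ALKBH5.

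In order of mean level, which FPKM allows because it is scaled by length, IgG RIP had ALKBH5 first, then RBM15B and WTAP, VIRMA, RBM15, ZC3H13, CBLL1, METTL14, FTO and METTL3. The ranges of neighbours overlapped between RBM15B and WTAP and along the run from RBM15 to METTL14. In KIAA1429 RIP the order was ALKBH5, WTAP, RBM15B, VIRMA, ZC3H13, RBM15, CBLL1, METTL3, METTL14 and FTO. There, neighbours were apart between ALKBH5 and WTAP and between METTL3 and METTL14.

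The 10 genes also hold the letters GGAC, a frequent form of the m6A consensus, searched on the sense strand of the spliced transcripts in GENCODE. All 21 listed transcripts held at least 1 match, as did 96.3% of the 33938 listed transcripts with a GENCODE sequence. The median was 3.99 matches per kb against 3.78 for all listed transcripts, whose middle range (lower to upper quartile) was 2.42 to 5.61. METTL3-201 held 9 matches, all in coding sequence, or 4.55 per kb. ALKBH5-201 had 6.96 per kb, RBM15B-201 5.59, FTO-206 2.51 and CBLL1-205 2.26. A match is a description of the letters and not of a methylated site.

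Among related genes, counted by lists, none passed the threshold. The counts of genes apart stand beside 16.6% apart and higher and 15.2% apart and lower over all gene totals. Of 7 genes in a list of other methyltransferases and their partners, 2 were apart and higher in KIAA1429 RIP and 1 apart and lower, with a median log2 fold change of 0.12. Of 8 genes that supply or recycle S-adenosylmethionine, 7 were listed, with 2 apart and higher, 1 apart and lower and a median of 0.07. Of 16 genes for m6A readers, 1 was apart and higher and 2 apart and lower, with a median of 0.18. Of 7 other genes of the AlkB family, to which ALKBH5 and FTO belong, 1 was apart and higher, with a median of -0.03. This gene was ALKBH6, which was listed at 0 in both IgG RIP libraries and at 10.05 and 5.02 FPKM in KIAA1429 RIP (limma unadjusted p 0.00138, adjusted p 0.885). It was the one gene of these lists with an unadjusted p under 0.05, and no fold is given against a group listed at 0. ALKBH6 reached the mean of at least 1 FPKM needed for the test through KIAA1429 RIP alone. Its p-value is therefore not taken as support for a difference. The gene totals nearest to METTL3 by Euclidean distance of log2(FPKM + 1) over the 4 libraries were BAMBI (0.63), RP11-1212A22.4 (0.65) and HDHD2 (0.69). BAMBI, a decoy receptor of the TGF-beta family, was at 2.09 and 0.298 FPKM in IgG RIP and at 5.97 and 6.88 FPKM in KIAA1429 RIP.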

How the data were processed

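RIP-seq of HCCLM3 cells was measured in 4 libraries, 2 with an antibody against KIAA1429 and 2 with normal IgG, grouped by the labels. The authors purified the coprecipitated RNA, kept its poly(A) fraction for sequencing, mapped reads by HISAT2 on the human build GRCh37 (hg19) and deposited FPKM values per transcript. The submitters' processing notes also name Bowtie2 2.1.0. How FPKM were estimated, on which annotation release and with which strand setting is not given in the sources used here. Every listed transcript had a mean of at least 0.5001 FPKM in one of the groups. Whole reads could not be recovered from the values, so library depth is unknown, counting error has no interval here, and replicates alone give the precision.

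Features that averaged 1 FPKM or more over the libraries (gene totals, then transcripts: 11361 of 13300 and 23375 of 34975) were tested two-sided on log2(FPKM + 1) by limma 3.58.1 under R 4.3.3, using its moderated linear model with a mean-variance trend, and p-values were adjusted by Benjamini-Hochberg over all features of the level. A feature was called at an adjusted p under 0.05 if its log2 fold change was also beyond 1. The study's methods name a count test, which FPKM values do not allow. Groups are called apart when no library of one lies within the range of the other. Ratios are of group means without a pseudocount. Exons, coding parts, spliced lengths, overlaps and sequences come from the GENCODE v44lift37 annotation and its transcript sequences, with GRCh37 coordinates. Primers come from the study's supplement. Figures and counts were made in Python 3.11.15 with pandas 2.3.3.

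All 10 genes are named. A transcript is named where it is the most abundant of its gene, holds at least 20% of the gene total in a library or is listed at 0 in each library of 1 group only. RBM15-201 and WTAP-207 were named after their values were seen, and ZC3H13-202 was also named outside these rules. The 3 gene totals nearest to the gene with the largest log2 fold change are named, and genes of the lists of related methyltransferases, S-adenosylmethionine supply, AlkB family and readers where the unadjusted p is under 0.05. APOH, a marker, was named after its values were seen. The genes and lists were chosen with earlier results of these data known. Alternatives were pseudocounts of 0.1 and 0.01, no filter and a filter at 5 FPKM, median scaling, quantile normalization, limma without trend, the replicate number as a block, each library left out, protein_coding transcripts alone and the most abundant transcript alone. The processed copies of WTAP, FTO and CBLL1 were not analysed here. A few markers with no listed transcript are not reported here.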

Additional observations from a re-analysis of the deposited data

How the results depend on the processing

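None of the 10 gene totals and none of their tested transcripts passed the threshold under any alternative run. Of 137 alternative values of the log2 fold changes of the gene totals, 128 kept their direction and their side of the threshold and 9 reversed. METTL3 was higher in KIAA1429 RIP under all 13 of its alternatives, with a log2 fold change of 1.82 to 3.11, an unadjusted p under 0.05 in each and an adjusted p of 0.191 to 1. With the most abundant transcript alone, the log2 fold change became -0.30 for METTL14 and -0.50 for VIRMA, and 2 genes (METTL3 and WTAP) were at least 2-fold higher in place of 1, beside 11.1% of all gene totals in place of 7.58%. With each library left out in turn, the log2 fold change ranged from -0.14 to 0.44 for METTL14, -0.0148 to 0.11 for WTAP, -0.28 to 0.50 for VIRMA, -0.75 to 2.89 for CBLL1 and -0.28 to 0.048 for RBM15B, so these genes had no stable direction. The number of genes at least 2-fold higher ranged from 1 to 3: ZC3H13 joined METTL3 without KIAA1429 RIP replicate 2 (9.65% of all gene totals), and ZC3H13 and CBLL1 joined it without IgG RIP replicate 1 (16.2% of all gene totals). A pseudocount of 1 lowered the METTL3 ratio of means to 4.203. A mean of at least 5 FPKM left METTL3, METTL14 and FTO untested, and tests on counts were not run. The cause of these changes was not tested.

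The groups share the replicate numbers 1 and 2, and nothing in the labels says that a number marks a shared lysate or day. Deviations from the group means of same-numbered libraries correlated at 0.187 over gene totals and 0.0299 over transcripts. With the replicate number as a block, limma called 0 of the 10 genes, and 12 gene totals of all genes were called higher and 1 lower in place of 0. The METTL3 log2 fold change was 2.09 (SE 0.57) with an adjusted p of 0.191 under the block. The members at least 2-fold higher within each same-numbered pair were METTL3 alone, so 1, beside 2.9% of all gene totals. The depth of the libraries is unknown, so values near 0, such as METTL3 in IgG RIP and CBLL1 in IgG RIP replicate 2, carry a counting error that cannot be given.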
